A study of Homo sapiens with 8 samples.

Results

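Acetylation of histone H3 on lysine 27 (H3K27ac) was examined at gene starts where pancreatic progenitors (PPs) lost called peaks after 7 days in I-BET151. These lost promoter regions numbered 807 among 12425 promoter regions, or 6.49%, and among 15752 H3K27ac regions in all. They were chosen by the peak calls of the 4 libraries themselves. Overlapping peaks of all libraries were merged into regions, and a region was kept if both DMSO libraries and neither I-BET151 library had a peak in it. Its summit, that of its strongest peak, had to be no more than 3 kb from the start of any transcript of a protein-coding gene in GENCODE 44 (hg38). The absence of a peak in I-BET151 is therefore the selection itself and not a result. It says that no peak passed the caller's threshold, not that acetylation was absent.

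The PPs were derived from the established embryonic stem cell line MEL1 (human), which in the study's methods carries GFP in 1 allele of the insulin gene (INSGFP/W). Both groups grew in EF6, a DMEM medium with B27, EGF at 50 ng/ml, bFGF at 10 ng/ml and compound 616452, a TGF-β receptor inhibitor, at 10 μM. One group received DMSO, the solvent, and the other 1 μM I-BET151, and each gave 2 chromatin immunoprecipitation (ChIP) libraries. The remaining 4 of the 8 libraries were inputs, which entered only through the background that the peak caller used. All libraries came from 1 line, and the labels do not say whether replicates were separate cultures, so p-values measure the spread between libraries only. In a bulk culture, fewer cells carrying a mark and less of the mark per cell cannot be told apart.

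H3K27ac is laid down by the acetyltransferases p300 and CBP at active promoters and enhancers, where it weakens the hold of histones on DNA and marks transcribed loci. Proteins of the BET family bind acetylated lysines on histones through bromodomains and bring in the kinase that releases paused RNA polymerase. I-BET151 occupies the bromodomain pocket and displaces BET proteins from chromatin. Most human gene starts lie in CpG islands, stretches rich in GC and in the CG dinucleotide, while starts with few CG dinucleotides are more often used in particular tissues.

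DNA sequence played no part in the selection, and sequences are shown first for a few lost regions. All are hg38, plus strand, centred on the summit where no annotated exon intervened. ADAP1 and ELF4 were the strongest lost regions with an exon-free window. CLDN7, OVOL1, ITGA2 and LAMA5 stand for the epithelial junction and matrix genes described later and were chosen after their values were seen. In these 6 windows capitals mark every CG. They lay at chr7:946170-946370 (ADAP1), chrX:130110224-130110324 (ELF4), chr17:7261455-7261655 (CLDN7), chr11:65787958-65788158 (OVOL1), chr5:52988884-52989084 (ITGA2) and chr20:62364740-62364940 (LAMA5).
ADAP1: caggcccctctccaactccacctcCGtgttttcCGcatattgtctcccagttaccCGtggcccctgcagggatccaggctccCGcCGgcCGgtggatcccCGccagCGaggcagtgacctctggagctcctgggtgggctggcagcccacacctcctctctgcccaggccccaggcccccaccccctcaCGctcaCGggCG
ELF4: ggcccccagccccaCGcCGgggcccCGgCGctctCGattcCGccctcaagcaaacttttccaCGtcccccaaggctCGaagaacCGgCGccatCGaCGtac
CLDN7: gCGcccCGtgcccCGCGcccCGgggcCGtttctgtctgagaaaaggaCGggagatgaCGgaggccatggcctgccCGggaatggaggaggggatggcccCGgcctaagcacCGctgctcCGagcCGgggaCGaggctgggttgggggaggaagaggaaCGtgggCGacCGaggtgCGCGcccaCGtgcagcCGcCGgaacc
OVOL1: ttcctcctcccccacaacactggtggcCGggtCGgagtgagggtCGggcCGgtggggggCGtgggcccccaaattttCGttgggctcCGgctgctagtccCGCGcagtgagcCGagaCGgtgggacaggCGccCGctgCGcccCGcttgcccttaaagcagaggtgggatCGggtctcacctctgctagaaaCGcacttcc
ITGA2: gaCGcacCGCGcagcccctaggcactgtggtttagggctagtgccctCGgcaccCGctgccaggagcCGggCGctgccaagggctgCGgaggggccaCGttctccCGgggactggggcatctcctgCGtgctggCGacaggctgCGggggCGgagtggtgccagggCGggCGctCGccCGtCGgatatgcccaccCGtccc
LAMA5: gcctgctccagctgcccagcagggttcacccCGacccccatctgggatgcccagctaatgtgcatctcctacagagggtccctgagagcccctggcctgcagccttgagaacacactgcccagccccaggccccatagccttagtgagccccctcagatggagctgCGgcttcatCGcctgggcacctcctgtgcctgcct
Among the windows of equal length, that of CLDN7 held 22 CG, that of ITGA2 20, that of OVOL1 17, that of ADAP1 11 and that of LAMA5 only 3. The shorter ELF4 window held 12.

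A further 4 lost regions show the AP-1 site, the sequence bound by FOS and JUN dimers, within 100 bp of the summit. They are the strongest of those that hold it in exon-free sequence, also chosen after their values were seen. Here capitals mark the AP-1 site, read on either strand. The windows lay at chr22:46575663-46575863 (GRAMD4), chr7:1530899-1531041 (MAFK), chr20:31566962-31567162 (HM13) and chr14:93959922-93960122 (ASB2).
GRAMD4: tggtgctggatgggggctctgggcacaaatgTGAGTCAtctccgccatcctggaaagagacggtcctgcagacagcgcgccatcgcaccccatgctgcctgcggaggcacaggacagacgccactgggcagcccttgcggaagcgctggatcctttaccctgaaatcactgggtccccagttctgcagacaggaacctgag
MAFK: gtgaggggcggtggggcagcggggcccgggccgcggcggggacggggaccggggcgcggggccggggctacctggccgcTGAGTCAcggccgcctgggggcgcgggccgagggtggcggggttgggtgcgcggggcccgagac
HM13: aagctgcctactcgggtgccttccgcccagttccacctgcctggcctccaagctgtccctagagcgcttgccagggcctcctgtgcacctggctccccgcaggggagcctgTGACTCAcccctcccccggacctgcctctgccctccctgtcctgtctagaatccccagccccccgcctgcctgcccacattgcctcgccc
ASB2: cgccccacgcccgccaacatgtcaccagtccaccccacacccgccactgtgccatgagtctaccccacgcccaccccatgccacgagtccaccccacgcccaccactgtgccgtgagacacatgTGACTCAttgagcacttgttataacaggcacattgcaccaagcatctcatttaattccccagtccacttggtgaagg
MAFK, which encodes a small MAF transcription factor, had its site in a window of 85.3% GC, whereas the other windows were at 58.7 to 69.2%.

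The lost promoter regions were moderate peaks in DMSO. Their median fold enrichment over local background, as the authors' peak caller gave it, was 4.05 in DMSO replicate 1 and 4.56 in replicate 2. Promoter regions called in all 4 libraries had medians of 6.04 and 6.74. Lost regions were also narrower. Because a region called in more libraries merges more peaks, widths were compared within 1 library, and the strongest peak of a region had a median width of 396 bp in DMSO replicate 1 and 398 bp in replicate 2, against 707 and 694 bp. Reads at each summit could be worked out from the fold and the p-value of a peak, and the lost regions had medians of 114 and 134 reads, against 241 and 276. Per M ChIP reads (M for mega, as in depth) these are 14.3 and 13.6 for the lost regions and 30.3 and 28.1 for the others. Counted down from the strongest peak of each list, their median place was at 81.6% and 77.3% of its length, so most were in the weaker part. Still, 357 of the 807 (44.2%) reached 10 or more in −log10 q in each DMSO library. All of these values come from the libraries that chose the regions and are given as description.

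The DMSO replicates gave these summits similar heights. Reads per M correlated across 788 regions resolved in both libraries (Spearman 0.955, which is across regions of the same 2 libraries), and the log2 ratio of replicate 2 to replicate 1 had a median of −0.056 with an SD of 0.175. How many reads a peak would have needed in I-BET151 was computed for each region with the local input level seen in DMSO. The lower DMSO value was at least 1.5 times the higher of the 2 limits in 568 of 788 regions (72.1%) and at least 2 times in 257 (32.6%). The median was 1.76 times, with a range of 0.825 to 5.05. At that input level, a fall of less than 2-fold was enough to lose the call at most of these promoters, and the I-BET151 read numbers themselves are unknown. Depth, estimated from the peak values, was 7.96 and 9.84 M ChIP reads in DMSO replicates 1 and 2 and 7.76 and 8.04 M in I-BET151 replicates 1 and 2. DMSO replicate 2 was thus the deepest library and also had the most peaks, 14248 against 12312 to 13606 in the others, and the part of depth in the lost calls was not tested.

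The strongest lost region lay upstream of a start of ADAP1, which encodes a phosphoinositide-binding GTPase-activating protein for ARF6 (chr7:945067-946868, intron). Its summit held 30.5 and 30.8 reads per M in DMSO replicates 1 and 2, where 7.99 and 8.34 would have sufficed for a call in I-BET151 replicates 1 and 2. Another ADAP1 start region was called in both I-BET151 libraries, and with 1 start per gene the lost region no longer counted as a promoter region. The next, in the first intron of ELF4, an ETS family transcription factor (chrX:130109563-130111356), had 27.9 and 25 reads per M against limits of 6.70 and 6.84. No other region near an ELF4 start was called in I-BET151, and the nearest I-BET151 peak was 36825 bp away. ATP6V0D1, a subunit of the vacuolar proton pump, lost an intronic region 141 bp past a start (chr16:67480699-67481143) with 26.9 and 24.5 reads per M against limits of 6.32 and 6.84.

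CLDN7, which encodes a claudin of epithelial tight junctions, carried a pair of strong lost regions. One lay in the untranslated first exon (chr17:7262649-7263095) with folds of 8.07 and 8.48 in DMSO. The other was intronic (chr17:7260884-7261948) and had the most reads of any lost region, 291 and 335 at its summit. No region at a CLDN7 start was called in either I-BET151 library. LBP, the lipopolysaccharide-binding protein, had few reads, 95 and 123, but folds of 18.6 in both libraries over a low local input. SLC51A, a subunit of the basolateral bile acid exporter, had folds of 12 and 17.0 at 1691 bp upstream of a start. CAPZB, the beta subunit of actin capping protein, had folds of 15.7 and 10.1. The folds of SLC51A and CAPZB differed between replicates more than their reads per M, which were 14.3 and 15.7 for SLC51A and 18.8 and 17.2 for CAPZB.

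The rest of the 12 strongest lay at HID1, a protein of the secretory pathway, at MICALL2, an effector of RAB13 in junction assembly, at ASPHD1 and at ANKRD9. Among genes with no other start region called in I-BET151, the list went on with FUT2, the secretor fucosyltransferase, and EFNA1, the ephrin-A1 ligand. TRPV4, a calcium-permeable channel, and PLLP, a tetraspan membrane protein, followed. At FUT2 the replicates held 21.5 and 16.6 reads per M, at TRPV4 27.9 and 25.9, and at PLLP 26 and 25.3. All 16 named regions exceeded the I-BET151 limits in both DMSO libraries, as did 783 of the 788 resolved lost regions (99.4%). For regions chosen by their strength in DMSO this follows from the choice.

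**Figure D1:**
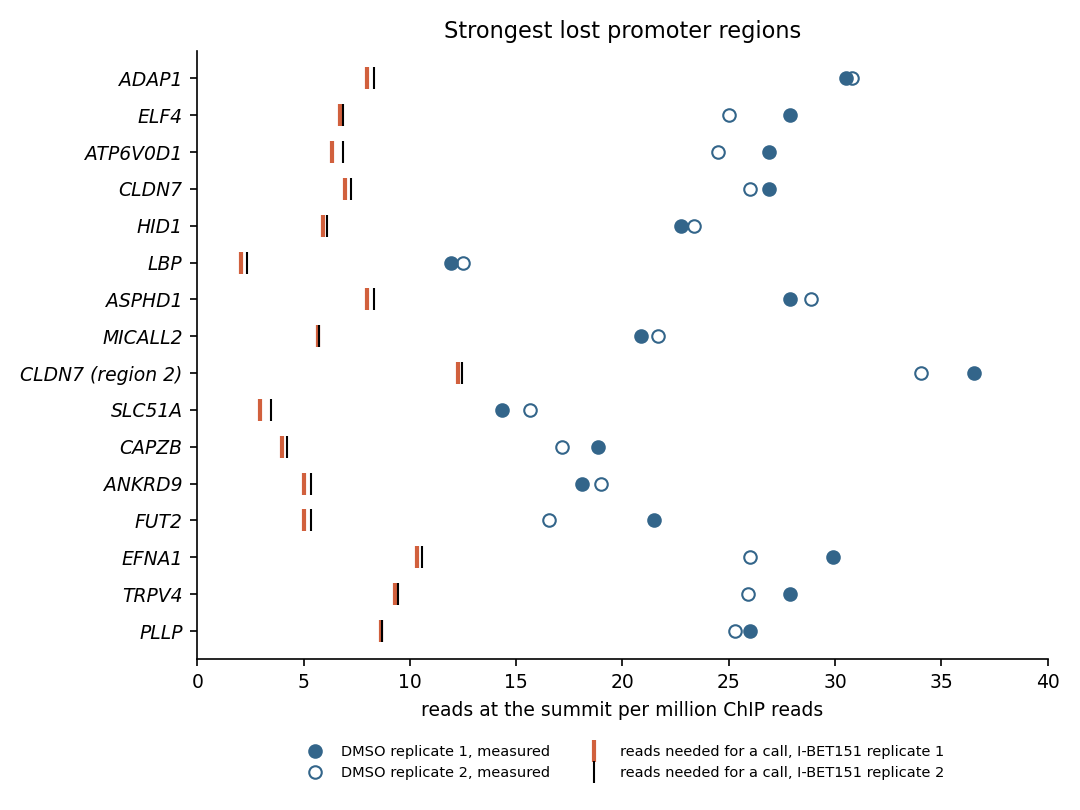
Reads at the summit per M ChIP reads for the 16 strongest lost promoter regions in DMSO replicates 1 and 2 (circles), beside the reads that a call would have needed in I-BET151 replicates 1 and 2 at the DMSO input level (ticks). Every circle lies to the right of both ticks, which follows from the choice by DMSO strength. The CLDN7 region in the intron is the highest at 36.6 and 34.0 reads per M.

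At the edges of the definition, PCDH7 (2977 bp from the start) and PALM (2927 bp) were just inside 3 kb, while lost regions 3007 bp from CRIM1 and 3039 bp from CMIP were just outside. The weakest members by q were at NACA, with −log10 q of 3.41 and 1.30, and at TLE3, with 1.40 and 2.14. Another 611 promoter regions were called in both DMSO libraries and in 1 I-BET151 library and are not counted as lost. At PACS1 an I-BET151 peak began only 27 bp from the lost region and at CPEB3 100 bp away.

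Lost regions sat farther from the start than the rest. A start lay inside the peak of DMSO replicate 2 in 45.4% of them (366 of 807, 95% Wilson interval 41.9 to 48.8%) and in 80.1% of promoter regions called in all 4 libraries (79.3 to 80.9%). In DMSO replicate 1 it did so in 43.1% of the lost regions (39.7 to 46.6%). The summit was within 500 bp in 72.6% against 91.3%, and over 1 kb away in 16.0% against 3.30%. It fell downstream of the start in 66.0%, close to the 69.5% of regions called in all 4. By annotation 354 summits were in introns, 149 in untranslated exons, 148 in coding exons, 73 in exons of noncoding transcripts and 83 between genes.

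Other regions near a start of the same gene were often called in I-BET151, but that start need not be the one at the lost region. For 321 lost regions (39.8%, 36.5 to 43.2%) another region within 3 kb of a start of the same gene was called in both I-BET151 libraries, and for 41 in 1 of them. At 445 (55.1%, 51.7 to 58.5%) none was called. For the 292 gained promoter regions, which only the I-BET151 libraries called, the mirrored shares were 31.2% (26.1 to 36.7%) with another region in both DMSO libraries and 62.7% with none. Of the lost regions themselves, 129 (16.0%) lay within 500 bp of an I-BET151 peak and 232 (28.7%) within 3 kb. The median gap was 14698 bp. The share with another region moved to 25.9% when 1 start per gene was used, so it depends on counting alternative starts.

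The 807 regions were assigned to 702 genes, 7.12% of the 9860 genes with any promoter region. In comparison 268 genes (2.72%) had a gained promoter region, and only 4 genes had both. A promoter region called in all 4 libraries was assigned to 210 of the 702. The share of all 9860 genes with such a region is not given here, so 210 cannot be read as many or few. More than 1 lost region was found at 91 genes and 3 or more at 12, with at most 4. ALDH3B1, an aldehyde dehydrogenase, had 4 over chr11:68009957-68017602 with folds of 3.89 to 10.4 and no I-BET151 region at its starts. SEPTIN9, a cytoskeletal GTPase, also had 4, and another region near a SEPTIN9 start was called in both I-BET151 libraries. KRT15, a basal epithelial keratin, had 3 with folds of 8.52 to 16.6, and their ratios of observed to expected CG were 0.128 to 0.219.

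Gene lists of pathways and cell types were then read against the 7.12% of all genes. The junction and keratin lists had large shares of genes with a lost promoter region. Of 33 tight and adherens junction genes with a promoter region 9 had lost one (27.3%, 15.1 to 44.2%), and of 14 keratin and desmosome genes 4 had (28.6%, 11.7 to 54.6%). Besides junction proteins the first list holds factors that regulate epithelial genes, and these were 4 of the 9 (4 of 6 such genes), while the junction and polarity genes proper were 5 of 27 (18.5%). A gained region was found at 0 of the 33 and 2 of the 14, where the share over all genes was 2.72%. The intervals treat genes as independent, and the lists were drawn up with results of these data known, so the shares describe these libraries.

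In the junction list, the adhesion molecule E-cadherin (CDH1) had lost regions 246 and 859 bp past its start (chr16:68737365-68737879 and chr16:68738026-68738522, both intronic). Their summits held 211 and 225 reads in DMSO replicates 1 and 2 for the first and 154 and 197 for the second. No other CDH1 start region was called in I-BET151, and the nearest I-BET151 peak was 105565 bp from the first. Its partner p120-catenin (CTNND1) had 63 and 74 reads. Transcription factors and splicing factors that keep epithelial identity were in the same list. OVOL1, a zinc finger repressor of mesenchymal genes, had 175 and 211 reads and no other region in I-BET151, OVOL2 had 101 and 124, and GRHL1, a grainyhead factor, had 165 and 170 with another region kept in both. The epithelial splicing regulator ESRP1, the tight junction protein MARVELD3 and the polarity protein LLGL2 completed the 9.

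The keratin and desmosome list did not include KRT15, described above, which is not in its count. Its 4 genes were KRT23, the plakoglobin gene JUP, the plakophilin gene PKP3 and the periplakin gene PPL. Their folds ran from 2.93 for PKP3 in DMSO replicate 1 to 6.66 for JUP in DMSO replicate 1, on either side of the medians of all lost regions. At KRT23, PKP3 and PPL no other region was called in I-BET151, while at JUP another was called in both libraries.

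Extracellular matrix and integrin genes had 8 of 39 with a lost region (20.5%, 10.8 to 35.5%). The integrin subunit genes were ITGA2 and ITGA3, which encode alpha chains for collagen and laminin binding, and ITGB4, the hemidesmosome chain. ITGA2 had folds of 4.90 and 6.16 and its nearest I-BET151 peak was 120136 bp away. ITGA3 had folds of 2.92 and 4.82 and ITGB4 2.90 and 6.49, both with none at their starts. The ITGB4 replicates differed more than 2-fold in this ratio, although their summit reads were 119 and 151. Matrix proteins were COL17A1, COL4A2, COL6A1, NID2 and LAMA5, the alpha chain of epithelial laminins. LAMA5 kept other start regions in both I-BET151 libraries.

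AP-1 and immediate early genes had 5 of 20 (25%, 11.2 to 46.9%). JUNB, a JUN family subunit, had 3 lost regions from 2742 bp upstream to 258 bp downstream of a start, and its strongest held 261 and 321 reads. FOSL2, FOSB, ATF3 and MAFK each had 1. At JUNB, FOSL2 and MAFK another region was called in both I-BET151 libraries, at ATF3 in 1 and at FOSB in none. In the TGF-β and BMP list 7 of 39 genes had lost regions (17.9%, 8.98 to 32.7%). They comprised the ligand genes BMP4 and TGFB1, the latency proteins LTBP3 and LTBP4, the antagonist FSTL3, and the inhibitors SKI and SMAD7. BMP4 had 3, with 142 and 157 reads at the strongest and an I-BET151 peak 321 bp away. TGFB1 had 147 and 194 reads and no other region in I-BET151. The medium's TGF-β receptor inhibitor was present in both groups.

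Transport genes formed a further group. Solute carriers had 26 of 193 (13.5%, 9.36 to 19.0%). Among them were SLC7A7, a cationic amino acid exchanger with folds of 6.75 and 7.00, SLC3A1, the heavy chain of a cystine transporter, with 15.1 and 10.8, and SLC35A2, the UDP-galactose transporter with 8.94 and 12.4. Ion channels had 9 of 48 (18.8%, 10.2 to 31.9%), of which TRPV4 and the epithelial sodium channel subunit SCNN1A are known from epithelia. SCNN1A had 44 reads in each DMSO replicate. Inflammation and NF-κB genes had 7 of 52 (13.5%, 6.68 to 25.3%), with NFKB2, IRF1 and BCL3 the strongest, and that interval includes 7.12%.

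Few pancreatic and proliferation genes were among the lost. Of 26 pancreatic progenitor factors 1 had a lost region (3.85%, 0.682 to 18.9%), TCF7L2, where another region was called in both I-BET151 libraries. Notch pathway genes had 0 of 19 (0 to 16.8%) with a lost region, and 4 of 19 with a gained region, where the share over all genes was 2.72%. Of 54 cell cycle and replication genes 1 had a lost region (1.85%, 0.328 to 9.77%), CDK6, with an I-BET151 peak 234 bp away. Zinc finger (ZNF) genes had 12 of 278 (4.32%, 2.49 to 7.39%) and cytosolic ribosomal protein genes 3 of 68 (4.41%). The intervals of the Notch, progenitor, cell cycle, ZNF and ribosomal lists all include 7.12%, so these lists were not separable from all genes at these numbers.

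The remaining lists had intervals that included 7.12%. MAP kinase feedback genes had 2 of 20, EGF receptor genes 1 of 11 (AREG, the ligand amphiregulin), MYC and MAX network genes 1 of 12 (MXI1), YAP and TEAD genes 1 of 24 (VGLL3) and WNT genes 1 of 25, again TCF7L2. Small GTPase regulators had 12 of 145 (8.28%), vesicle trafficking genes 14 of 159 (8.81%) and lipid transport genes 4 of 71 (5.63%). Only 4 endocrine genes had any promoter region, and 1 of them, STX1A, had lost one.

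As the share lost differed by DMSO strength, the lists were also read among promoter regions as strong in DMSO as the lost ones, between the 5th and 95th percentiles of their −log10 p. There 17.0% of 3761 genes had a lost region. The shares were 80% for keratins (4 of 5), 53.8% for junctions (7 of 13) and 45.5% for AP-1 and immediate early genes (5 of 11). They were 36.8% for matrix genes (7 of 19) and for TGF-β and BMP genes (7 of 19), and 29.2% for ion channels (7 of 24). Solute carriers (25 of 93) and inflammation genes (7 of 26) were both at 26.9%. MAP kinase feedback genes were at 33.3% (2 of 6) and vesicle trafficking genes at 22.2% (14 of 63). The inflammation, MAP kinase and vesicle lists were among those whose intervals included 7.12%. Lists below 17.0% included progenitor factors at 5.88% (1 of 17), Notch genes (0 of 9), cell cycle genes at 4% (1 of 25) and ZNF genes at 9.82% (11 of 112). This restriction was added after the data were seen. With equal numbers of top-ranked peaks per library all genes were at 4.86%, the junction list at 20%, the TGF-β and BMP list at 7.69% and the ion channels at 7.14%.

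The list shares also moved with the other definitions. All of these use the same peak calls and the same lists, and leaving out a library cannot undo a lost call. The counts of alternatives therefore describe these libraries and are no independent support. Over 11 alternatives, each read against the share of all genes under the same alternative, the interval lay above that share in 11 for junctions and for solute carriers, in 10 for the AP-1, matrix and keratin lists, in 9 for ion channels and in 4 for TGF-β and BMP genes. The AP-1 list was at 15% with peaks merged within 500 bp, the matrix list at 13.2% with promoters within 1 kb and the keratin list at 16.7% with 1 start per gene. Ion channels were at 13.0% with −log10 q of at least 5. TGF-β and BMP genes were at 11.4% with 1 start per gene and at 10.3% with protein-coding transcripts only, and without any single library they stayed at 17.9% while the share of all genes rose to 9.23% or more.

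**Figure D2:**
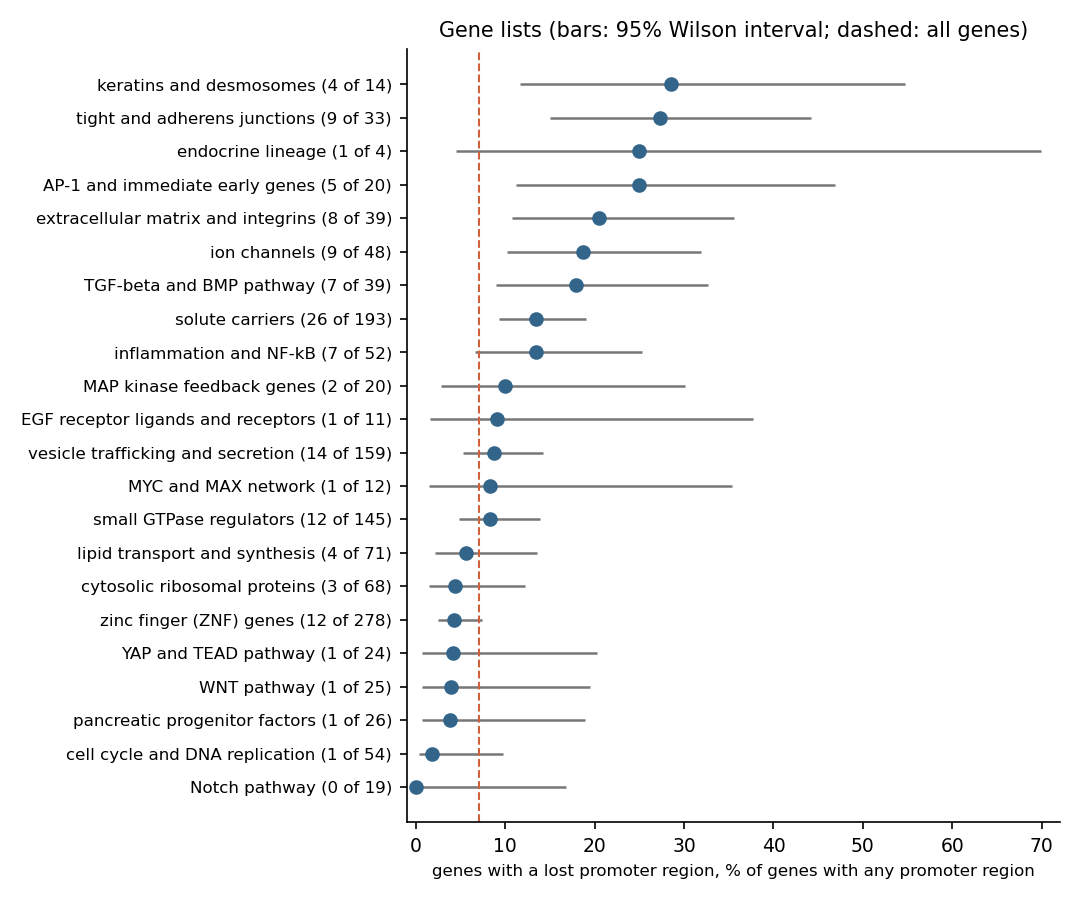
Percent of genes with a lost promoter region among genes with any promoter region (horizontal axis), for 22 gene lists with the counts beside each name, 95% Wilson intervals as bars and all genes (7.12%) as the dashed line. Keratin, junction, AP-1, matrix, ion channel, TGF-β and solute carrier lists have intervals above the line with these definitions, whereas the Notch list is at 0.

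The labelled cell type was checked at the same promoters. Of 12 PP markers 11 had a promoter region called in both DMSO libraries, and 11 in both I-BET151 libraries, among them PDX1, NKX6-1, SOX9 and FOXA2. Endocrine markers had 0 of 8 in either group. Liver markers had 1 of 5 (APOA1), intestinal markers 2 of 4 in DMSO (CDX2 and VIL1) and 1 in I-BET151, mesenchymal markers 2 of 6 and pluripotency markers 1 of 5. A lost promoter region was assigned to 0 of these markers. LBP, APOA5 and FUT2, which are made in liver or gut, had lost promoter regions. They are outside the marker lists and were picked here after their values were seen. At LBP another start region was called in both I-BET151 libraries, and the nearest I-BET151 peak was 2128 bp away. At APOA5 and FUT2 none was called. The part of other cell types in the lost regions was not tested.

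CpG content set the lost promoters apart from those called throughout. A region was termed CpG-island-like if the sequence within 250 bp of its summit had over 50% GC and a ratio of observed to expected CG above 0.6. This held for 458 of 807 lost regions (56.8%, 53.3 to 60.1%) and for 91.8% of 9115 promoter regions called in all 4 libraries (91.2 to 92.4%). The median CpG ratio was 0.651 against 0.829, and the median GC content 65.7% against 69.5%. Comparison within 5 classes of DMSO strength gave a Mantel-Haenszel odds ratio of 0.166 (95% interval 0.138 to 0.201). The interval is across regions, which are not replicates of a condition.

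The difference was present in every strength class. In the weakest class 67.3% of lost and 86.5% of kept regions were CpG-island-like, and in the strongest 52.5% and 92.7%. The strongest class ran from 18.4 to 114.9 in −log10 p (lower DMSO library) and held 162 lost and 7543 kept regions. Strength was therefore not closely matched within it. Of the lost and kept regions in these classes, 47.6% of the weakest and 2.1% of the strongest were lost. The 611 promoter regions called in both DMSO libraries and in 1 I-BET151 library were left out of these shares. With summits within 500 bp of a start the odds ratio was 0.174 (0.137 to 0.222). The CpG ratio also varied among the lost regions. Where no other region at the gene was called in I-BET151, 68.8% were CpG-island-like (64.3 to 72.9%, n = 445), against 40.8% (35.6 to 46.3%, n = 321) where another was called in both. The part of GC content in the calls was not tested.

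**Figure D3:**
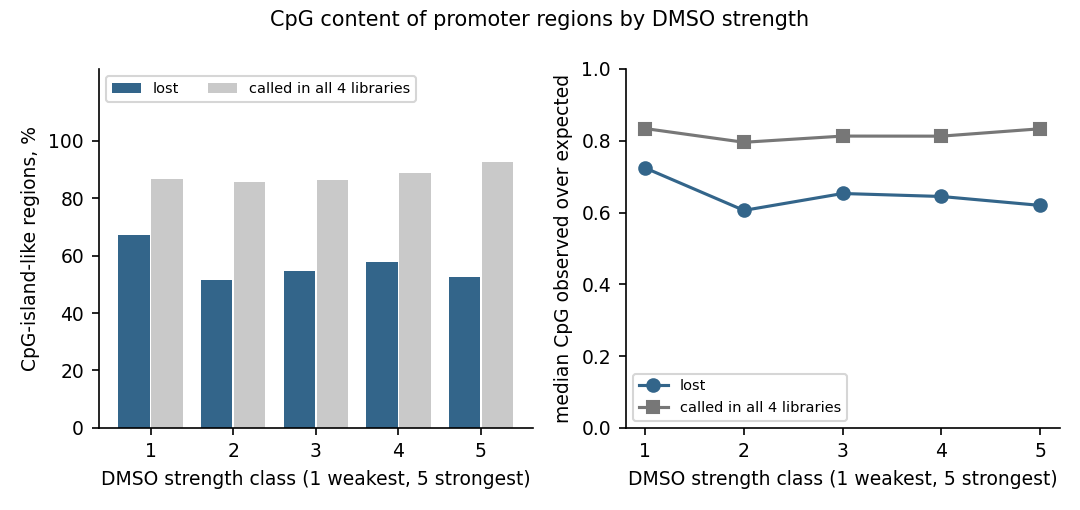
Left, percent of CpG-island-like regions, and right, median CpG observed over expected ratio, for lost promoter regions and promoter regions called in all 4 libraries, in 5 classes of DMSO −log10 p from weakest to strongest. Lost regions are lower in every class, with 52.5% against 92.7% in the strongest, a wide class in which strength is not closely matched.

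Motifs were searched as letters on both strands within 100 bp of the summit, and compared with promoter regions called in all 4 libraries within 5 classes of GC content. The AP-1 site TGACTCA was in 26 lost regions (3.22%), in 1.15% of those called in all 4, and in 1.46% of all promoter regions (odds ratio 2.28, 1.47 to 3.53). Of 14 motifs it alone had an interval above 1 in this comparison, while under the alternatives that of the TATA box did so without DMSO replicate 2 (2.16, 1.03 to 4.49) and that of TEAD with no GC classes (1.33, 1.01 to 1.77). Of the 26, 8 were CpG-island-like and 11 were at genes with no other region in I-BET151. They included an EFNA1 region (folds 8.07 and 10.5), regions at TRIP10, which acts in CDC42 signalling, and TNKS1BP1, and a pair at RIPOR1. The other lost regions did not hold the site in this window, so it describes few of them.

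Motifs typical of CpG-rich promoters were less frequent. The GC box GGGCGG, bound by SP and KLF factors, was in 47.8% of lost regions, 61.9% of those called in all 4 and 58.6% of all promoter regions (odds ratio 0.698, 0.60 to 0.811). The ETS site CCGGAAG was in 4.21%, 5.80% and 5.74% (0.643, 0.450 to 0.918). The YY1 site AAGATGGC was in 5 lost regions, or 0.620%, and in 1.67% and 1.47% (0.307, 0.125 to 0.755). The NRF1 site was in 4, or 0.496%, and in 1.49% and 1.44% (0.277, 0.101 to 0.755). The ETS interval included 1 without DMSO replicate 1 (0.851, 0.658 to 1.10) and without I-BET151 replicate 2 (0.758, 0.561 to 1.02). With summits within 500 bp of a start, the ETS and NRF1 intervals both included 1. Lost summits lay farther from starts, and the classes were of GC content and not of distance.

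For the other 9 motifs the interval included 1 or could not be computed, and several were rare. The TEAD site GGAATG was in 7.19% of lost regions, 5.49% of those called in all 4 and 5.96% of all promoter regions (odds ratio 1.11, 0.835 to 1.47). The E-box CACGTG was in 4.21%, 3.37% and 3.48% (1.13, 0.782 to 1.62). TATAAA and GRHL (AACNGGTT) were in 5 and 3 lost regions, and in 0.459% and 0.499% of all promoter regions. The FOXA site TGTTTAC was in 3 and in 0.483% of all, and the AGATAAG site of GATA factors in 3 and in 0.338% of all. NFY (GCCAATC), CRE (TGACGTCA) and HNF4 (CAAAGTCCA) were in 4, 1 and 0, and in 0.837%, 0.266% and 0.121% of all. Absence of the letters from a window says nothing of the factor.

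**Figure D4:**
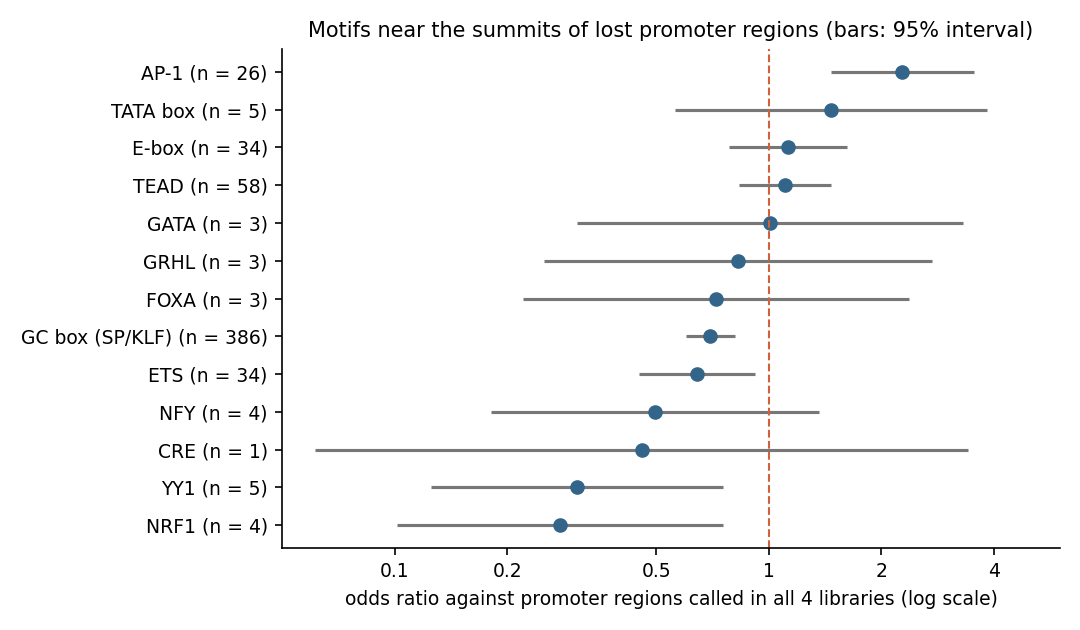
Odds ratios (log axis) of 13 motifs within 100 bp of the summit in lost promoter regions against promoter regions called in all 4 libraries, in GC classes, with 95% intervals and the number of lost regions holding each. AP-1 lies above 1 at 2.28, and the GC box, ETS, YY1 and NRF1 lie below; HNF4, found in 0 lost regions, is not drawn.

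Acetylation near the lost promoters was compared on peaks outside the lost regions. The windows were still placed by the selection in the same libraries, and nearby peaks can belong to the same acetylated domain. Peaks around and elsewhere were also not matched for DMSO strength, so the comparison is description and not independent of the selection. The window was 50 kb on either side, without the lost regions themselves. DMSO replicates 1 and 2 had 1082 and 1104 kb under peaks there, and I-BET151 replicates 1 and 2 had 892 and 838 kb. Both I-BET151 libraries were below both DMSO libraries. The means were 1093 ± 15.0 kb and 865 ± 38.3 kb (SD, n = 2 each), a difference of −228 kb or −20.9% (exact permutation test, two-sided, p = 0.33, and no smaller p is possible with 2 libraries a group). The difference exceeded the spread within either group.

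Elsewhere in the genome the change was smaller in proportion. DMSO libraries had 8403 ± 39.2 kb under peaks there and I-BET151 libraries 8040 ± 369.8 kb (SD, n = 2 each), a difference of −362 kb or −4.31% (exact permutation p = 0.33). It was 0.164% without I-BET151 replicate 2, −2.08% without DMSO replicate 1 and −0.572% with equal numbers of top-ranked peaks, so the value elsewhere rests on few peaks and libraries. Around the lost promoters it was −138 kb or −19.7% with top-ranked peaks. Of the length covered outside the lost regions themselves, the share around the lost promoters was 11.4% and 11.6% in DMSO and 9.70% and 9.72% in I-BET151. These 4 shares leave the groups apart by more than either spread (exact permutation p = 0.33).

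Single neighbouring regions showed the same order. Away from promoters, 101 of 392 regions within 50 kb of a lost promoter region were lost (25.8%, 21.7 to 30.3%), against 447 of 2935 elsewhere (15.2%, 14.0 to 16.6%). Gained regions were 2.81% of the neighbours (1.57 to 4.95%) and 4.77% elsewhere (4.06 to 5.60%), with overlapping intervals. Neighbouring regions that were called in all 4 libraries, 1062 in number, also covered less after I-BET151, with means of 919.7 ± 5.45 kb (DMSO) and 806 ± 17.7 kb (I-BET151, SD, n = 2 each), a change of −12.4%. The 9255 such regions elsewhere covered 7598 ± 110.2 kb and 7373 ± 220.1 kb (−2.95%). Some of these neighbours are parts of the same acetylated domain as a lost region, so they are not independent of it.

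**Figure D5:**
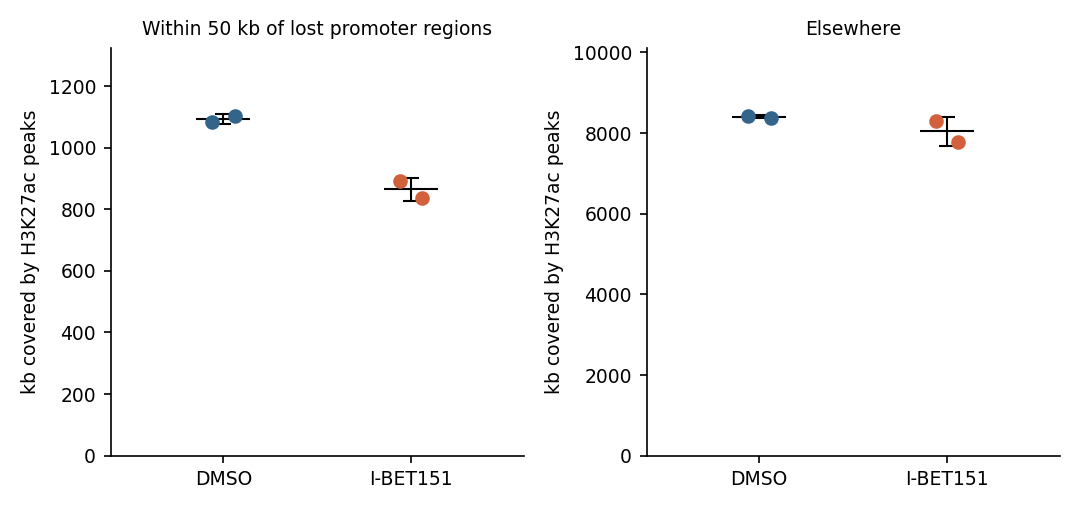
Length covered by H3K27ac peaks in kb, per library (dots) with mean and SD (n = 2 libraries a group), within 50 kb of lost promoter regions without those regions (left) and elsewhere (right). Around the lost promoters I-BET151 libraries are at 892 and 838 kb and DMSO libraries at 1082 and 1104 kb, while elsewhere the groups lie closer in proportion.

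The number of lost promoter regions depends on how promoters and calls are defined. It was 730 with the starts of protein-coding transcripts only, 564 with 1 start per gene, and 513 when every library was held to the same number of top-ranked peaks. Without DMSO replicate 1 it was 1283.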

How the data were processed

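Paired-end reads were mapped by the authors to hg38 (Bowtie2 2.2.5). They removed duplicates and mitochondrial reads and called peaks in each ChIP library against input with MACS2 2.1.2 at default settings, without pooling replicates. The deposited lists give each peak's interval, its score, its fold enrichment (a ratio over local background) and −log10 of its p-value and q-value. The score repeats −log10 q and was not used. The lists hold no read counts. Whole ChIP reads and the local input level at each summit were worked out from the fold, which MACS2 computes with a pseudocount of 1, and the Poisson p-value. This resolved 99.4 to 99.6% of peaks, and 100% of those gave whole reads within 0.02. Depth was estimated from the genome-wide input level, the shortest peak as fragment length, and the scaling between input and ChIP. Duplicate removal caps summit heights, and a fixed threshold of q at 0.05 leaves out weaker acetylation in shallower libraries.

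Peaks of the 4 libraries sharing at least 1 bp were merged, and groups came from the library titles. Wilson intervals cover counting error only, odds ratios are Mantel-Haenszel with 95% intervals, and covered length was tested by exact permutation (two-sided, 6 assignments of the libraries). Regions are assigned to the gene with the start nearest the summit. Coordinates are 1-based, and 0 peaks ran past a chromosome end of hg38. Analyses used Python 3.11.15, numpy 2.4.6, pandas 2.3.3 and scipy 1.17.1, and the procedures were tested on simulated data. Named regions were the 12 with the highest lower −log10 p in DMSO, the 12 highest with no other I-BET151 region at the gene, up to 4 genes per list, those at the edges of the definition, and others stated as chosen after their values were seen. The regions, gene lists, motifs and tests were all chosen with earlier results of these data known. The result of 1 gene list is not reported here. Alternatives were other promoter distances and starts, merging within 500 bp, −log10 q of at least 5, top-ranked peaks, 50% coverage, other windows and classes, each library left out, and the replicate block.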

Additional observations from a re-analysis of the deposited data

Results flagged for a closer look

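The inputs, which were not analysed as samples of their own, carried a signal at the lost promoter regions. The median local input level at their summits was 32.6-fold above the genome-wide level of the DMSO inputs, as worked out from the peak values. At the summits of the 2 DMSO lists the medians for lost regions were 35.9-fold and 30.2-fold, and those for promoter regions called in all 4 libraries were 49.0-fold and 44.8-fold.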

How the results depend on the processing

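The share of lost promoter regions with another region called in both I-BET151 libraries was 32.7% with promoters within 1 kb, 25.9% with 1 start per gene, 30.8% with peaks merged within 500 bp and 34.7% with protein-coding transcripts only, and 41.7 to 43.5% when single libraries were left out. The number lost was 513 with equal numbers of top-ranked peaks and 1033 to 1283 without single libraries. Motif intervals excluding 1 numbered 5, and 3 with summits within 500 bp of a start, where those of ETS and NRF1 included 1. The change of covered length elsewhere was −5.53 to 0.164% without single libraries, the last without I-BET151 replicate 2. The covered-length difference around lost promoters was −138 kb with top-ranked peaks and −270 to −200.2 kb without single libraries, and the CpG odds ratio stayed within 0.117 and 0.245 over its alternatives. As a replicate block, 1274 and 1721 promoter regions were called only in DMSO in the same-numbered pairs, and the covered-length difference was −191 and −266 kb. The 807 called so in both pairs are the selection itself. The mean of −228 kb is the same by arithmetic as the difference without pairs, so neither value is a check. The replicate differences in calls of DMSO and of I-BET151 correlated at 0.0205 across promoter regions. That value cannot settle whether same-numbered libraries were prepared together. Leaving out a library cannot undo a lost call. A stricter q or top-ranked peaks could not undo it either for regions this strong in DMSO. Over all alternatives but library omission the 16 named regions stayed lost in 103 of 112 checks, which include those settings. The 9 exceptions all came with the promoter definition: HID1, MICALL2, SLC51A and ANKRD9 with promoters within 1 kb, ADAP1, HID1, SLC51A and CAPZB with 1 start per gene, and HID1 with protein-coding transcripts only. At these depths weaker acetylation in I-BET151 is not visible.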
